A study of Mus musculus with 27 samples.

Results

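Neutrophils sorted from mammary tumours of mice given an antibody against CSF-1R were compared with neutrophils from tumours of mice given a control antibody. The comparison uses 8 of the 27 libraries of the series, chosen by their titles: 4 labelled anti-CSF-1R and 4 labelled control antibody. The other neutrophil libraries, 3 from mice given cisplatin with the control antibody and 4 from mice given cisplatin with anti-CSF-1R (the combination), share none of these samples. The remaining 12 libraries are of macrophages. All mice were of the strain K14cre;Cdh1F/F;Trp53F/F, in which Cre driven by the keratin 14 promoter removes E-cadherin and p53 from epithelial cells, so that tumours arise de novo and both groups carry the same alleles. Neither of the 2 groups had received cisplatin, and the mice of both were killed when the tumour measured 100 mm2. Cells were FACS-sorted, and each library was made from 10 ng of total RNA. The sources used here give no sort gate, age, length of antibody treatment or statement that each library is 1 mouse. The p-values therefore measure the spread among the libraries, part of which may be technical.

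Neutrophils are short-lived phagocytes that leave the bone marrow under the control of the growth factor G-CSF and its receptor Csf3r. Macrophages depend on CSF-1R, the receptor for CSF-1 and IL-34, and an antibody that blocks it removes many tumour macrophages. Neutrophils respond to microbial and tissue signals through NF-kB, a family of transcription factors held in the cytoplasm by inhibitors such as IkBa. Its targets include cytokines, chemokines, survival genes and its own inhibitors. Interferons act through another route, the STAT and IRF factors, on a separate set of antiviral and antigen presentation genes.

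The values are read counts that the authors normalised. In the deposited table most values have lost the place of their decimal point, which was restored from the step that 1 read makes in each library. In these 8 libraries 1 read was worth 0.894 to 1.95, and the restored reads came to 1085348 to 2182700 a library over 9996 genes. Where the place of the point could not be settled with a probability of 0.95 the value was left out, which touched 5.85% of neutrophil values. A value of 1 stands for no reads, and values are given in the order of replicates 1 to 4. Correlations across genes were 0.93 to 0.954 within the anti-CSF-1R group, 0.933 to 0.953 within the control group and 0.924 to 0.951 between the groups, so libraries of different groups were about as alike as replicates. On the first principal component (23.6% of the variance) the 8 libraries lay between -18.9 and 8.78, while replicate 2 of the combination and of cisplatin stood apart at 42.2 and 28.6. The cells carried neutrophil transcripts: Csf3r stood at 4843 to 8265 in the 8 libraries, against 93.3 to 302 in the 4 control macrophage libraries. Macrophage transcripts were present at a lower level. C1qb, a complement subunit made by macrophages, stood at 54.2 to 329 in the neutrophils and at 1983 to 3149 in the control macrophages. Ly6g, a surface marker of mouse neutrophils, is not among the genes analysed here.

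No gene passed the test. Of 9113 genes tested with limma on log2(value + 1), 0 (0%) were higher and 0 (0%) lower at a Benjamini-Hochberg adjusted p of 0.05, and the smallest adjusted p was 0.182. At an unadjusted p under 0.05, 370 genes (4.06%) were higher and 311 (3.41%) lower in the anti-CSF-1R libraries, 681 in all. A fit of limma-voom to the restored reads of 5315 genes also called 0, with 398 at an unadjusted p under 0.05. In simulated libraries of this design the same test found 14.5% of 2-fold and 45.5% of 4-fold changes, and so missed most changes of these sizes. Of the 6444 genes with all 8 values restored, 119 (1.85%) had every anti-CSF-1R value above every control value, and 188 (2.92%) had every one below. Everything that follows is therefore a description of values that did not pass the threshold.

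**Figure D1:**
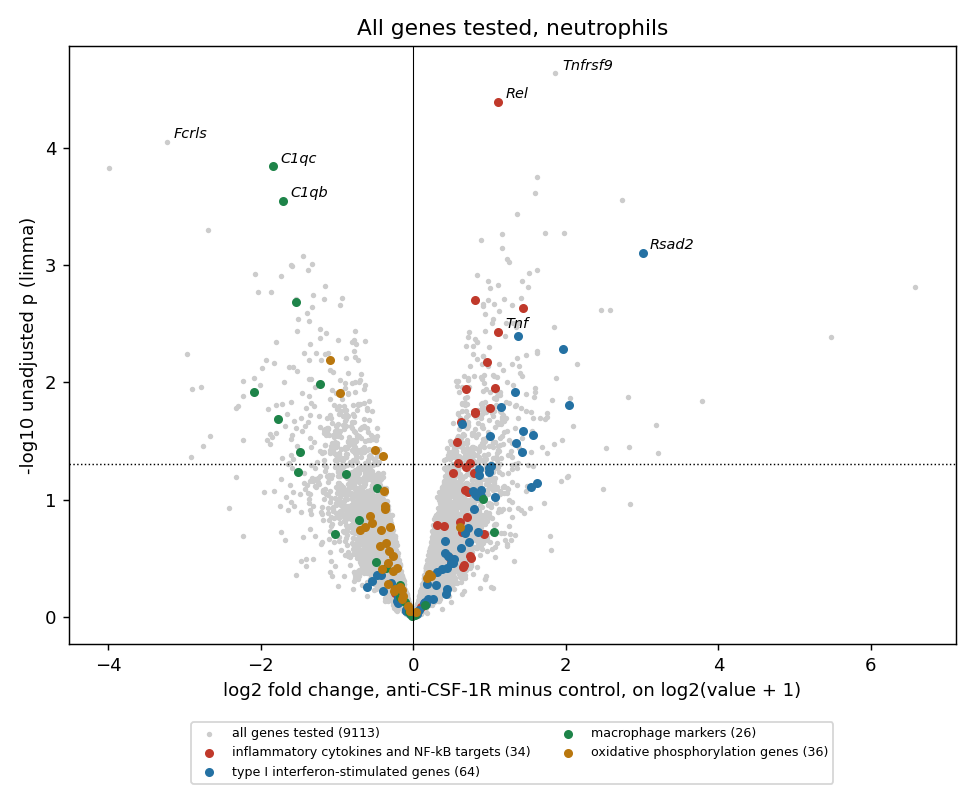
Each point is a gene, with the log2 fold change between anti-CSF-1R and control neutrophils on the horizontal axis and the unadjusted p of limma as -log10 on the vertical axis. The dotted line marks an unadjusted 0.05, and colours mark 4 gene lists. Of the 34 measured NF-kB and cytokine genes, 33 lie to the right of 0, and 22 of 26 macrophage markers lie to the left.

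The genes of NF-kB signalling and of inflammatory cytokines stood higher in the anti-CSF-1R libraries as a group. Of the 34 members tested, 33 had a positive log2 fold change, with a median of 0.69, against 50.9% of all genes tested and a median of 0.0094. None passed the adjusted threshold, and 14 had an unadjusted p under 0.05, all of them higher, against 4.06% of all genes tested. Of the 25 members restored in all libraries, 4 did not overlap between the groups, all of them higher, against 1.85% of all such genes. The mean log2 deviation of the list, with every value at its most probable place, was -0.49 to -0.24 in the control libraries and -0.14 to 0.83 in the anti-CSF-1R libraries, without overlap. Replicate 1 of the anti-CSF-1R group was nearest to the controls and replicate 3 was farthest from them. Without replicate 3 the median was 0.49, and without replicate 1 it was 0.91.

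Rel, which encodes the NF-kB subunit c-Rel (chromosome 11, 23736847 to 23770970, minus strand, GRCm38), had the second smallest p of all genes. It stood at 764, 807, 646 and 764 in the controls and at 1301, 1710.5, 2022 and 1480.5 in the anti-CSF-1R libraries. The control values lay close together, at 646 to 807, and the lowest anti-CSF-1R value was above all of them. The log2 fold change was 1.11 ± 0.21 (SE), and limma gave an adjusted p of 0.182. With libraries weighted by their precision the adjusted p was 0.0412, and over all alternatives it ranged from 0.0412 to 0.534.

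Tnfrsf9, which encodes the costimulatory receptor 4-1BB and is induced on activated leukocytes (chromosome 4, 150914562 to 150946102, plus strand), had the smallest p. Its values were low, at 5.92, 5.91, 7.4 and 10.2 in the controls and at 23.2, 35.2, 29 and 28.8 in the anti-CSF-1R libraries. With 1 read worth 0.894 to 1.95 these rest on few reads, and the groups did not overlap. The log2 fold change was 1.86 ± 0.33 (SE), with an adjusted p of 0.182 by limma.

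Values of 4 genes that regulate the pathway or its mRNAs follow, of which Nfkbia, Tnfaip3 and Nfkbiz were chosen after their values were seen. Nfkbia, which encodes IkBa (chromosome 12, 55489410 to 55492647, minus strand), stood at 1361, 1265, 1210 and 1574 in the controls and at 1827, 2179.7, 3371 and 2338 in the anti-CSF-1R libraries, with no overlap. Zc3h12a, which encodes the ribonuclease Regnase-1 that degrades inflammatory mRNAs, stood at 182, 152, 237 and 181 in the controls and at 256, 395, 354 and 316 in the anti-CSF-1R libraries, also without overlap. Their log2 fold changes were 0.81 ± 0.31 (SE) and 0.81 ± 0.22 (SE), with adjusted p of 0.597 and 0.382 by limma. Tnfaip3, the ubiquitin-editing inhibitor A20, and Nfkbiz, the nuclear regulator IkBz, had log2 fold changes of 1.07 ± 0.38 (SE) and 1.01 ± 0.38 (SE). Their groups overlapped through replicate 1 of the anti-CSF-1R group, at 6183 for Tnfaip3 against 6845 in control replicate 1. Malt1, the paracaspase that activates NF-kB and cleaves several such regulators, was chosen after its values were seen too. It stood at 644, 875, 723 and 597 in the controls and at 892, 1742, 2206 and 1532 in the anti-CSF-1R libraries, without overlap (log2 fold change 1.11, SE 0.30, adjusted p = 0.382 by limma).

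**Figure D2:**
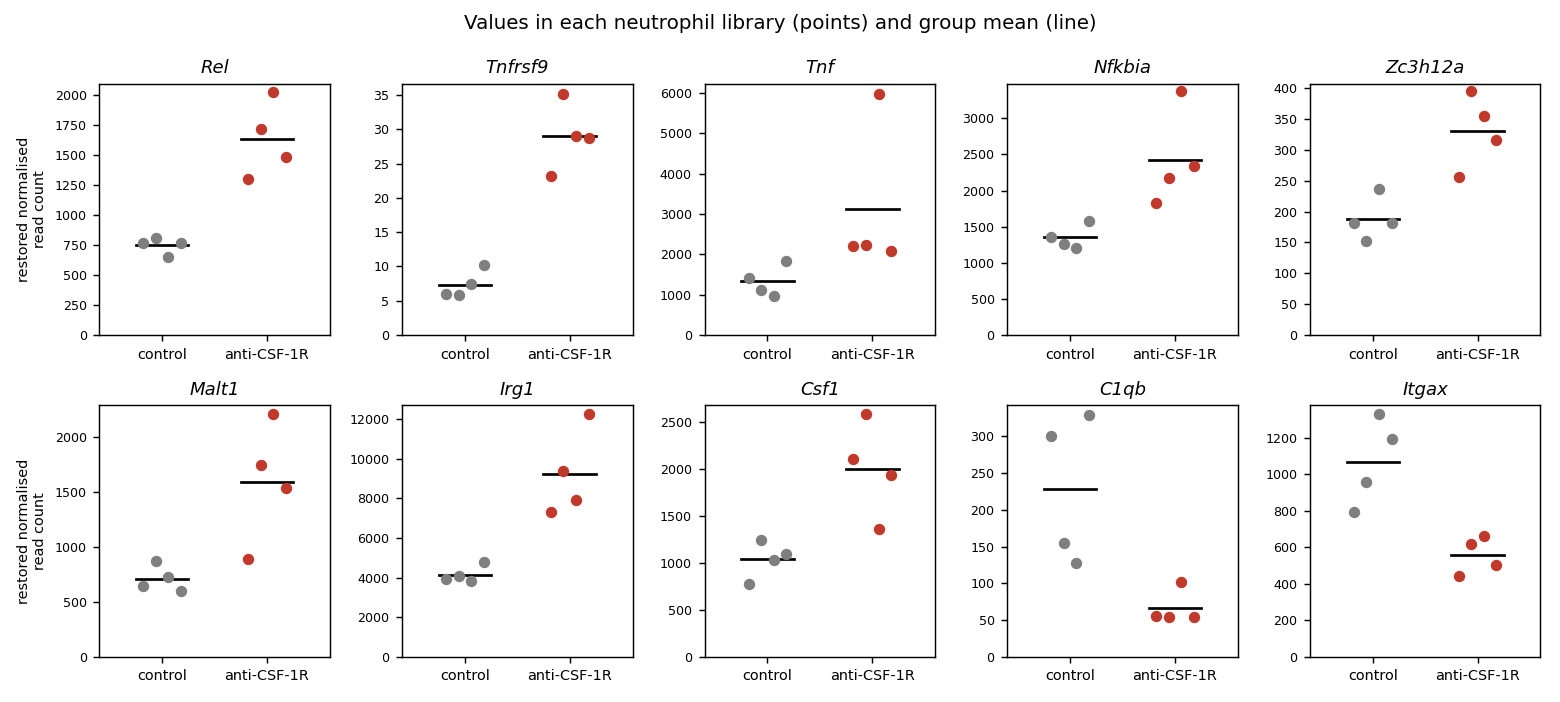
Restored normalised read counts of 10 genes in each library, with control libraries in grey, anti-CSF-1R libraries in red and the group mean as a line. Each vertical axis starts at 0. For Rel the control values are 646 to 807 and the anti-CSF-1R values 1301 to 2022, and for C1qb and Itgax the anti-CSF-1R values lie below all controls.

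Among the cytokines Tnf was highest in 1 library. It stood at 1422, 1113, 979 and 1844 in the controls and at 2209, 2236, 5986 and 2081 in the anti-CSF-1R libraries. The groups did not overlap, but replicate 3 stood far above the rest of its group, and without it the log2 fold change went from 1.11 ± 0.33 (SE) to 0.74. Il1b, which encodes interleukin-1 beta, overlapped between the groups, at 15053, 17128, 11527 and 15255 in the controls and at 15267, 14519, 32441 and 24262 in the anti-CSF-1R libraries. Its log2 fold change of 0.49 ± 0.47 (SE) became -0.059 after quantile normalisation. Il10, an anti-inflammatory cytokine, had a log2 fold change of 1.98 ± 0.45 (SE) from 5 restored values, which were 34.1 and 53.2 in control replicates 1 and 2 and 102, 347 and 142 in anti-CSF-1R replicates 2 to 4. The left-out value of anti-CSF-1R replicate 1 was 3.57, 35.7 or 357, so the groups may overlap. Traf1, an adaptor of TNF receptors, was named after its values were seen and overlapped through replicate 1 as well. It stood at 349.5, 265, 449.6 and 260.1 in the controls and at 315, 811, 935 and 665 in the anti-CSF-1R libraries (log2 fold change 0.97, SE 0.32).

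A sequence that NF-kB dimers can bind lies just before the start of several of these genes. The kappaB letters (GGG, any pair of bases, then TTTCC), searched on both strands in the 250 bases before each start in the RefSeq promoter table (GRCm38.p6), occurred for 6 of 28 tested list members with a promoter (21.4%) and for 447 of 27025 genes in that table (1.65%). The 6 were Rel, Nfkbia, Tnfaip3, Nfkb2, Il6 and Il1rn. Among tested genes with a promoter the share was 1.95%. The list was drawn up as cytokines and NF-kB targets, so its share of these letters does not bear on the libraries. Within the list the median log2 fold change was 0.75 for members with the letters and 0.69 for those without. Over all tested genes with a promoter, the median log2 fold change was 0.15 for the 136 genes with the letters and 0.010 for those without. A match in these letters is not a measured binding site. The promoters of the genes with the smallest p and of the inhibitor are shown because they carry the letters, in capitals, close to the start. For the minus-strand genes the sequence is that of the gene's own strand. They are Rel at chr11:23770970-23771219, Nfkbia at chr12:55492648-55492897 and Tnfrsf9, for 1 of its starts, at chr4:150927749-150927998.
Rel: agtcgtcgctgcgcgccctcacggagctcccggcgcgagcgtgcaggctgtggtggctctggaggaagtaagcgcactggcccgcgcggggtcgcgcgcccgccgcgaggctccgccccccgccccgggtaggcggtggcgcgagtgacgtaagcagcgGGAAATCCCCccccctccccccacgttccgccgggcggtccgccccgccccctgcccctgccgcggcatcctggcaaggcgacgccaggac
Nfkbia: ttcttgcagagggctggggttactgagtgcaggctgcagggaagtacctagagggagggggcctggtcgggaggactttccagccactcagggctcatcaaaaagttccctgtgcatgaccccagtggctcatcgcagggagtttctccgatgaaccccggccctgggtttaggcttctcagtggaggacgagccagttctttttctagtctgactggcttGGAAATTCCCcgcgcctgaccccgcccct
Tnfrsf9: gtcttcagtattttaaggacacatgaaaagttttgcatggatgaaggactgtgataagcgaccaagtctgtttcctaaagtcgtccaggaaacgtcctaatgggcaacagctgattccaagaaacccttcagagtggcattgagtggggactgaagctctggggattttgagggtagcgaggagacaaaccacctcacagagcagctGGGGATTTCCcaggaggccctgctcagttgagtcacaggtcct

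In Rel the match ends 82 bases before the start, in Nfkbia 20 bases and in Tnfrsf9 34 bases. Csf1 also has a match, which begins 154 bases before its start. A second start of Tnfrsf9 in the table has none.

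The level of a gene bore on its fold change in this comparison, and the values of the NF-kB list are best read beside it. Genes whose mean restored value was 1000 or above had a positive log2 fold change in 76.1% of 309 cases (median 0.22), against 43.1% of 2929 genes under 20 (median -0.091). In the band of 1000 or above the NF-kB list had 16 members, all 16 positive, with a median of 0.69. Quantile normalisation, which forces the libraries to 1 distribution, brought the share in the top band to 48.5%. It left the NF-kB list with 30 of 34 members positive and a median of 0.57. Of the 188 genes at 1000 or above in all 8 libraries, which needed no restoring, 147 (78.2%) were positive. At an unadjusted p under 0.05 by limma, 20 were higher and 1 was lower, against 4.06% and 3.41% of all genes tested. These counts are without quantile normalisation, so they carry the same dependence on level.

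Genes that act in cell death and survival were also positive for the most part, and they share Birc3 and the Bcl2a1 genes with the NF-kB list. Of 30 tested, 23 had a positive log2 fold change (median 0.37), and none passed. Higher at an unadjusted p under 0.05 were 6, and 1 was lower, against 4.06% and 3.41% of all genes tested. Cflar, which encodes the caspase-8 inhibitor c-FLIP, stood at 1133, 1229.9, 709 and 754 in the controls and at 956, 2144, 2906 and 2172 in the anti-CSF-1R libraries. Replicate 1 of the anti-CSF-1R group lay among the controls and the other 3 above them (log2 fold change 1.03, SE 0.30, adjusted p = 0.425 by limma). Birc3, which encodes the ubiquitin ligase cIAP2, also had replicate 1 as the lowest of the anti-CSF-1R libraries and within the control range, at 658, 807, 921 and 816 in the controls and at 862, 1628, 1366 and 1419.7 in the anti-CSF-1R libraries (log2 fold change 0.69, SE 0.25). Bcl2a1d, a survival protein of the BCL2 family, had a log2 fold change of 1.44 ± 0.40 (SE), but its near-identical copies Bcl2a1a and Bcl2a1b can share its reads, so this value is uncertain.

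Values of 3 other genes of myeloid activation follow. They were picked after their values were seen, so their separation does not bear on such genes as a class. Irg1 (Acod1), which encodes the enzyme that makes itaconate, stood at 3947, 4069.5, 3841 and 4778 in the controls and at 7332, 9379.6, 7913 and 12278 in the anti-CSF-1R libraries (log2 fold change 1.13, SE 0.32, adjusted p = 0.384 by limma). Bcl6, a transcriptional repressor, stood at 312, 339, 252 and 368 in the controls and at 416, 649, 559 and 754 in the anti-CSF-1R libraries (log2 fold change 0.88, SE 0.21). Tlr2, a receptor for bacterial lipoproteins, stood at 786, 788, 994 and 1025 in the controls and at 1566, 1806, 1152 and 1442 in the anti-CSF-1R libraries (log2 fold change 0.72, SE 0.22). All 3 had every anti-CSF-1R value above every control value, as had 119 (1.85%) of the 6444 genes with all 8 values restored. Ier5, an immediate early gene from a list of such genes, did so as well, at 1096, 1274, 1534 and 1788 in the controls and at 1882, 2729, 2417 and 2816 in the anti-CSF-1R libraries (log2 fold change 0.80, SE 0.27).

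The list of chemokine genes, which includes the receptor gene Ccrl2, had 17 of 21 positive log2 fold changes (median 0.59), with none past the threshold. The 4 with an unadjusted p under 0.05, Ccrl2 among them, were all higher, against 4.06% of all genes tested. Ccl3, an inflammatory chemokine, stood at 3691, 5132, 5541 and 2525 in the controls and at 6433, 6369, 16967 and 17108 in the anti-CSF-1R libraries. Its groups did not overlap, and replicates 3 and 4 of the anti-CSF-1R group were high (log2 fold change 1.37, SE 0.65, adjusted p = 0.665 by limma). Cxcl1 and Cxcl2, ligands of the neutrophil receptor CXCR2, had log2 fold changes of 1.22 ± 0.45 (SE) and 0.59 ± 0.54 (SE) and overlapped. Ccl5, a chemokine that attracts leukocytes, was settled in 4 libraries, of which 1 was a control (log2 fold change 1.72, SE 0.65). The log2 fold change of Cxcl1 was 0.76 without anti-CSF-1R replicate 3, and that of Cxcl2 was 0.00091 after quantile normalisation. Ccrl2, a chemerin-binding receptor, stood at 5363, 4476, 5745 and 8326 in the controls and at 8130.2, 8887, 15389 and 12723 in the anti-CSF-1R libraries. Its groups overlapped through replicate 4 of the controls and replicate 1 of the anti-CSF-1R group.

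The gene of the receptor that the antibody targets, Csf1r (chromosome 18, 61100598 to 61132149, plus strand), was detected in these neutrophil libraries and differed little. It stood at 1217, 1135, 1349 and 1041 in the controls and at 770.4, 1128, 1338 and 1047 in the anti-CSF-1R libraries, with overlap. Its log2 fold change was -0.17 ± 0.26 (SE), with a 95% interval of -0.72 to 0.39, and limma gave an adjusted p of 0.916. The control macrophage libraries had 1777 to 2438, and the part of macrophages or monocytes in the neutrophil values of Csf1r was not tested. The gene of its ligand, Csf1 (chromosome 3, 107741048 to 107760469, minus strand), named after its values were seen, stood at 779, 1248, 1027 and 1098 in the controls and at 2103, 2588, 1362 and 1938 in the anti-CSF-1R libraries. Every anti-CSF-1R value was above every control value (log2 fold change 0.93, SE 0.32, adjusted p = 0.572 by limma).

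The receptors for the granulocyte growth factors showed no such separation. Csf3r stood at 5038, 6779, 7532 and 7895 in the controls and at 5898, 8265, 4843 and 7903 in the anti-CSF-1R libraries, with a log2 fold change of -0.031 ± 0.27 (SE). Csf2ra and Csf2rb, the chains of the GM-CSF receptor, had log2 fold changes of 0.12 ± 0.36 (SE) and 0.30 ± 0.28 (SE), which turned to -0.013 and -0.036 after quantile normalisation. Cxcr2, which draws neutrophils to tissue, and Cxcr4, which retains them in marrow, had log2 fold changes of 0.056 ± 0.33 (SE) and -0.031 ± 0.24 (SE), and leaving out single libraries turned the sign of both. Over the list of 32 receptors 21 were positive (median 0.18). At an unadjusted p under 0.05, 3 were higher and 2 lower, against 4.06% and 3.41% of all genes tested. The median was 0.068 without anti-CSF-1R replicate 4.

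Of the 27 receptors restored in all 8 libraries, 2 were higher and 2 lower without overlap, against 1.85% and 2.92% of all such genes. Tnfrsf1b, the TNF receptor 2, stood at 2041, 2574, 2712 and 2557 in the controls and at 2772, 4909, 4816 and 4958 in the anti-CSF-1R libraries (log2 fold change 0.79, SE 0.25, adjusted p = 0.505 by limma). Ifngr2, a chain of the interferon-gamma receptor, stood at 233, 213, 229 and 256 in the controls and at 349, 356, 346 and 468 in the anti-CSF-1R libraries (log2 fold change 0.70, SE 0.22). Both were higher in each anti-CSF-1R library than in each control. Tgfbr2, a receptor for TGF-beta, was lower, at 487, 306, 352 and 411 in the controls and at 302, 289, 264 and 247 in the anti-CSF-1R libraries (log2 fold change -0.48, SE 0.20). Il4ra, the receptor chain for interleukins 4 and 13, was named after its values were seen and was lower as well. It stood at 472, 517, 622 and 677 in the controls and at 463, 411, 446 and 362 in the anti-CSF-1R libraries (log2 fold change -0.44, SE 0.22, adjusted p = 0.699 by limma).

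Interferon-stimulated genes had positive log2 fold changes for the most part, but their level varied widely within both groups. Of 64 type I interferon-stimulated genes tested, 51 were positive (median 0.53). With an unadjusted p under 0.05, 12 were higher and none lower, against 4.06% and 3.41% of all genes tested. None of the 14 restored in all 8 libraries was free of overlap (of all such genes, 1.85% were higher and 2.92% lower without overlap). The mean log2 deviation of the list was -0.41, -0.81, -0.81 and 0.70 in control replicates 1, 2, 3 and 4. In the anti-CSF-1R libraries it was 0.54, 0.19, -0.70 and 1.29 in replicates 1 to 4. Control replicate 4 was thus above 3 of the anti-CSF-1R libraries, and anti-CSF-1R replicate 3, the library with the highest NF-kB level, was among the lowest. Without control replicate 4 the median was 1.16, and without anti-CSF-1R replicate 4 it was 0.24.

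Rsad2, which encodes the antiviral enzyme viperin (chromosome 12, 26442746 to 26456452, minus strand), shows this spread. It stood at 717, 115, 104 and 1614 in control replicates 1 to 4, and at 2434, 1574 and 5549 in anti-CSF-1R replicates 1, 2 and 4. The value of anti-CSF-1R replicate 3 was left out and was 19.7 or 197, low in either case. The log2 fold change of 3.01 ± 0.74 (SE) rests on the 3 high libraries, and with the most probable place for every value it was 1.24. Ddx58, which encodes the RNA sensor RIG-I, went likewise from 1.38 ± 0.41 (SE) to 0.81. Ifit1 had 1 restored control value, 191, beside 575, 575 and 1249 in anti-CSF-1R replicates 1, 2 and 4 (log2 fold change 1.96, SE 0.59).

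Letters at the core of the element that STAT and IRF complexes bind (GAAA, any pair of bases, GAAA, on either strand) lay in the 250 bases before the start of 17 of 47 tested type I interferon-stimulated genes with a promoter (36.2%), against 3.46% of all genes in the table. Among tested genes with a promoter the share was 3.54%. The list was drawn up as interferon-stimulated genes, so its share of these letters does not bear on the libraries. Within the list the median log2 fold change was 0.72 for members with the letters and 0.41 for those without. The stretch before the start of Rsad2, at chr12:26456453-26456702, is shown with the match in capitals.
Rsad2: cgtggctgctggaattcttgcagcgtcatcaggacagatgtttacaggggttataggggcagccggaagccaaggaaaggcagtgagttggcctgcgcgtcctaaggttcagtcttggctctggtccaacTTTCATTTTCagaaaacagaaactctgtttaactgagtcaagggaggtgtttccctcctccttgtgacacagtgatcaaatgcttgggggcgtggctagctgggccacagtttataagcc

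Genes that respond to interferon-gamma had 22 of 29 positive log2 fold changes (median 0.41). Of these genes, 5 were higher and none lower at an unadjusted p under 0.05, against 4.06% and 3.41% of all genes tested. Without control replicate 4 the median was 1.12, and without control replicate 3 it was 0.083. Gbp2, a guanylate-binding protein, stood at 145, 188, 118 and 1032 in control replicates 1 to 4, where replicate 4 was as high as the anti-CSF-1R libraries at 1459, 465 and 1011 in replicates 1, 2 and 4. The left-out value of replicate 3 was 10.4 or 104, and with most probable places the log2 fold change went from 1.87 ± 0.63 (SE) to 1.10. Irgm2, an interferon-inducible GTPase, was settled in 1 control library only, so its log2 fold change of 1.72 ± 0.39 (SE) is uncertain. With the places restored by a model that uses the groups it was 2.28 with an adjusted p of 0.000141 by limma, and with most probable places it was 0.63.

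Antigen presentation genes were positive in 17 of 20 cases (median 0.59). An unadjusted p under 0.05 was reached by 6, all higher, against 4.06% of all genes tested. H2-K1, a classical MHC class I heavy chain, stood at 3766, 2172, 4174 and 6211 in the controls and at 6159, 7587, 4817 and 6551 in the anti-CSF-1R libraries. Control replicate 4 reached into the anti-CSF-1R range (log2 fold change 0.70, SE 0.30, adjusted p = 0.639 by limma). H2-Q7 had a log2 fold change of 1.01 ± 0.35 (SE) and is one of several near-identical class I genes between which reads can be split. Cd274, which encodes the checkpoint ligand PD-L1, stood at 1339, 1162, 2694 and 2978 in the controls and at 2921, 3658, 3785 and 3739 in the anti-CSF-1R libraries. Control replicates 3 and 4 were close to the anti-CSF-1R values and replicates 1 and 2 were lower (log2 fold change 0.90, SE 0.34, adjusted p = 0.595 by limma).

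**Figure D3:**
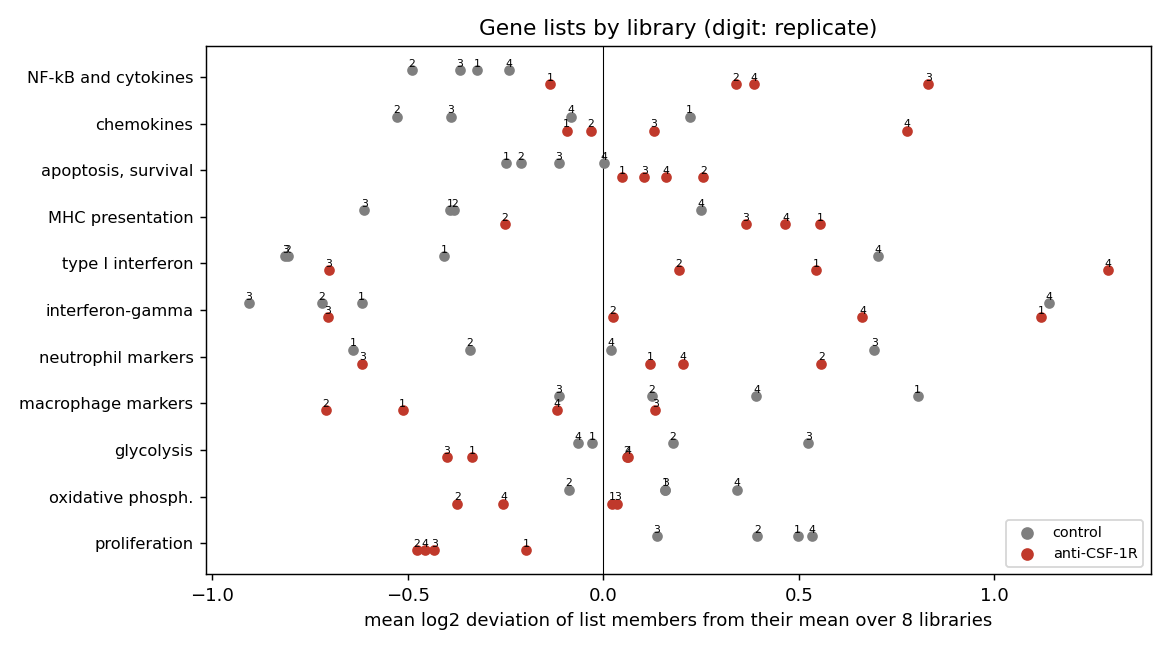
For 11 gene lists, the mean log2 deviation of the members from their mean over the 8 libraries is shown for each library, with the replicate number above the point and every value at its most probable place. Groups do not overlap for the NF-kB, the survival and the proliferation lists, but over members restored in all 8 libraries the survival and proliferation lists overlap and of these 3 only the NF-kB list does not. They overlap for the interferon lists, where control replicate 4 is high and anti-CSF-1R replicate 3 is low. Of the lists not shown, that of p53 and DNA damage response genes is lower without overlap at most probable places. Over its members restored in all 8 libraries the groups overlap.

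Genes of neutrophil effector function had list medians that depended on single libraries. Of 22 neutrophil markers 15 were positive (median 0.096, and -0.18 after quantile normalisation), and of 17 secondary and tertiary granule genes 8 were (median -0.028). Without control replicate 3 these medians were 0.38 and 0.34. That of the neutrophil markers was 0.021 without control replicate 1, and leaving out anti-CSF-1R replicate 2 took that of the granule genes to -0.23. S100a8 and S100a9, the calprotectin subunits, overlapped between the groups, with log2 fold changes of 0.43 ± 0.48 (SE) and 0.42 ± 0.47 (SE). That of S100a9 was -0.011 after quantile normalisation. Mmp9, the gelatinase of tertiary granules, stood at 1499, 871, 1499 and 1221 in the controls and at 811, 874, 589.6 and 984 in the anti-CSF-1R libraries, with overlap (log2 fold change -0.63, SE 0.33). Camp, a cathelicidin of secondary granules, was settled in only 4 of 8 libraries (log2 fold change -1.28, SE 0.95) and its sign depended on the left-out values. Of the 8 NADPH oxidase genes 4 were positive (median 0.030, and -0.048 to 0.18 when single libraries were left out). Cybb, the catalytic subunit of the oxidase, stood at 690.2, 352, 585 and 552 in the controls and at 942, 709.6, 1279.9 and 1368 in the anti-CSF-1R libraries, without overlap. Ncf1, its organiser, stood at 567, 464, 812 and 978 in the controls and at 876, 1531, 1388 and 1418 in the anti-CSF-1R libraries, with overlap. Their log2 fold changes were 0.97 ± 0.32 (SE) and 0.91 ± 0.29 (SE), with adjusted p of 0.529 and 0.508 by limma.

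Genes by which neutrophils are known to restrain T cells or remodel tissue were mixed. Of 20 immunosuppression and checkpoint genes 13 were positive (median 0.30, and 0.089 after quantile normalisation). The median was 0.19 without anti-CSF-1R replicate 2 and 0.51 without replicate 1. Ptgs2, which encodes cyclooxygenase 2, stood at 4858, 5894, 2067 and 2372 in the controls and at 3258, 3136, 13349 and 6495 in the anti-CSF-1R libraries, with overlap and with replicate 3 of the anti-CSF-1R group the highest (log2 fold change 0.66, SE 0.71). Without that replicate its log2 fold change was 0.23. Arg1 and Nos2, which consume arginine, were settled in 5 and 2 libraries, and their signs depended on the libraries or places taken. Tgfb1 differed by -0.12 ± 0.29 (SE) and Vegfa by 0.22 ± 0.28 (SE), both with overlap. Of 22 angiogenesis and remodelling genes 10 were positive (median -0.075, and 0.13 without anti-CSF-1R replicate 1).

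Genes of mitochondrial respiration stood lower for the most part. Their mean log2 deviation, with every value at its most probable place, overlapped between the groups. It was -0.088 to 0.34 in the controls and -0.37 to 0.037 in the anti-CSF-1R libraries. Of 36 tested, 31 had a negative log2 fold change (median -0.31), and none passed. The 4 with an unadjusted p under 0.05 were all lower, against 3.41% of all genes tested. Of the 30 restored in all 8 libraries, 5 had every anti-CSF-1R value below every control value, against 2.92% of all such genes. Without anti-CSF-1R replicate 2 the median was -0.20. Atp5b and Atp5a1, the catalytic and the partner subunit of ATP synthase, were among them. Atp5b stood at 1468, 1327, 1421 and 1423 in the controls and at 1128, 936, 1227 and 1010.3 in the anti-CSF-1R libraries (log2 fold change -0.40, SE 0.18, adjusted p = 0.644 by limma). Atp5a1 stood at 566, 423, 455 and 486 in the controls and at 377, 325, 363 and 298 in the anti-CSF-1R libraries (log2 fold change -0.50, SE 0.22). Uqcrc1, a subunit of complex III, stood at 37, 32.5, 33.3 and 52.8 in the controls and at 17, 15.6, 27.8 and 12.2 in the anti-CSF-1R libraries (log2 fold change -1.09, SE 0.35, adjusted p = 0.508 by limma).

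Glycolytic genes were negative in 14 of 19 cases (median -0.38, and -0.24 without anti-CSF-1R replicate 3). Gapdh stood at 1620.3, 1883, 3758 and 2003 in the controls and at 1189, 1542, 1152 and 1849 in the anti-CSF-1R libraries (log2 fold change -0.64, SE 0.33), and control replicate 3 was the highest. Without that library its log2 fold change was -0.38. That of Ldha, lactate dehydrogenase A, named after its values were seen, went from -0.50 ± 0.32 (SE) to -0.26 without it. Hypoxia genes had 13 of 20 negative (median -0.22), and 27 of 42 ribosomal protein genes were negative (median -0.11). The hypoxia median was -0.059 without control replicate 3 and -0.36 without control replicate 4, and the ribosomal median turned to 0.090 without anti-CSF-1R replicate 2.

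Of 30 immediate early and heat shock genes 17 were negative (median -0.12), and of 19 genes of endoplasmic reticulum stress 14 were (median -0.28). At an unadjusted p under 0.05, 2 of the former were higher and 5 lower, and 1 of the latter was lower. Over all genes tested, 4.06% were higher and 3.41% lower at that p. The members named had among the smallest p of their lists. Hspd1, the mitochondrial chaperonin, stood at 209, 155, 152 and 147 in the controls and at 122, 95.8, 85.7 and 62 in the anti-CSF-1R libraries. Pdia4, a disulphide isomerase of the endoplasmic reticulum, stood at 82.9, 78.3, 64.8 and 73.1 in the controls and at 45.6, 41.1, 38.2 and 48.7 in the anti-CSF-1R libraries. Neither overlapped. Their log2 fold changes were -0.88 ± 0.28 (SE) and -0.77 ± 0.24 (SE), with adjusted p of 0.508 and 0.465 by limma. Hspa1b, a heat shock protein whose near-identical copy Hspa1a can share its reads, had a log2 fold change of -1.12 ± 0.36 (SE).

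Proliferation genes were close to the detection limit. Of the 24 tested, 18 were negative (median -0.93). The 7 with an unadjusted p under 0.05 were all lower, against 3.41% of all genes tested. Among the 9 restored in all 8 libraries the median was -0.21. Mcm6, a subunit of the replication helicase, stood at 20.7, 10.3, 9.25 and 10.2 in control replicates 1 to 4 and at 1 in anti-CSF-1R replicates 2 and 3, and the left-out values of replicates 1 and 4 were at least 0.894 and 2.21. Ube2c, a ubiquitin-conjugating enzyme of mitosis, stood at 13.3, 5.55 and 8.33 in control replicates 1, 3 and 4, and at 1, 1, 2.32 and 1 in the anti-CSF-1R libraries. Ezh2, a histone methyltransferase, was better measured, at 53.3, 42.9 and 32.4 in control replicates 1, 2 and 4 and at 27.7, 27.4, 18.5 and 15.5 (log2 fold change -0.93, SE 0.37, adjusted p = 0.616 by limma).

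Markers of other cell types were read in the same libraries, and those of macrophages were mostly negative. Of 26 macrophage markers tested, 22 were negative (median -0.42). Lower at an unadjusted p under 0.05 were 7, and none was higher, against 3.41% and 4.06% of all genes tested. The median was -0.27 without control replicate 1, and leaving out anti-CSF-1R replicate 3 took it to -0.61. C1qb (chromosome 4, 136880129 to 136886187, minus strand) stood at 301, 155, 128 and 329 in the controls and at 55.4, 54.7, 102 and 54.2 in the anti-CSF-1R libraries, without overlap (log2 fold change -1.70, SE 0.37, adjusted p = 0.286 by limma). C1qc stood at 293, 154, 128 and 341 in the controls and at 51.8, 72.3 and 52 in anti-CSF-1R replicates 1, 2 and 4, where the left-out value was 6.95 or 69.5 (log2 fold change -1.84, SE 0.37). C1qa and the membrane protein gene Ms4a7 had log2 fold changes of -1.54 ± 0.40 (SE) and -1.22 ± 0.42 (SE), while Adgre1, the gene of F4/80, had -0.21 ± 0.41 (SE). The summed value of the 7 markers restored in all libraries was 2346 to 3383 in the controls and 1830 to 2857 in the anti-CSF-1R libraries, with overlap. In sorted bulk samples fewer cells of a type and less RNA per cell cannot be told apart.

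Markers of monocytes were positive in 8 of 11 cases (median 0.32, and 0.16 to 0.82 when control replicates 3 and 2 were left out in turn). Of these markers, 2 were higher and none lower at an unadjusted p under 0.05, against 4.06% and 3.41% of all genes tested. Their mean log2 deviation was -0.28, 0.12, -0.28 and -0.39 in the controls and 0.39, -0.40, 0.43 and 0.40 in the anti-CSF-1R libraries, with overlap. It was highest in anti-CSF-1R replicate 3, where the NF-kB list was highest too, and its part in that result was not tested. Markers of eosinophils were positive in 5 of 6 cases (median 0.70, 0.21 without anti-CSF-1R replicate 1 and 1.58 without control replicate 4), with none at an unadjusted p under 0.05.

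The other low genes with the smallest p were sparse. Fcrls, an Fc receptor-like gene of resident macrophages and microglia, stood at 28.1, 19.2 and 38.9 in control replicates 1, 2 and 4 and at 1, 9.77, 1 and 1 in the anti-CSF-1R libraries (log2 fold change -3.23, SE 0.61, adjusted p = 0.265 by limma). Col14a1, a fibril-associated collagen, stood at 77 and 11.8 in control replicates 1 and 2 and at 1 in anti-CSF-1R replicates 2 to 4, with 3 values left out. Of 11 fibroblast and matrix markers 9 were negative (median -0.22, and -0.63 to -0.11 when single libraries were left out), and all 5 epithelial and tumour cell markers were (median -0.60, and -1.11 to -0.30), at a summed value of 15.8 to 59.2 in the controls and 15.1 to 29.3 in the anti-CSF-1R libraries for the 3 restored throughout. Itgax, the integrin chain CD11c of dendritic cells and other myeloid cells, stood at 792, 955, 1332 and 1191 in the controls and at 441, 616, 661 and 502 in the anti-CSF-1R libraries, without overlap (log2 fold change -0.93, SE 0.34, adjusted p = 0.595 by limma). Of the 7 dendritic cell markers 5 were positive. The part of these cell types in the results above was not tested.

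Among settled values, B cell genes were high in 1 library. Cd79a, which encodes a signalling chain of the B cell receptor, stood at 190.4 in anti-CSF-1R replicate 1 and at 1 in control replicates 1 and 2, and its other 5 values were left out. That of anti-CSF-1R replicate 2 was 9.77, 97.7 or 977, and that of control replicate 3 was 9.25, 92.5 or 925, so other libraries may be high too. Cd22, a B cell lectin that also ranked among the 5 genes with the smallest p for a higher level, stood at 127 in that library and at 13.3, 13.3, 27.8 and 22.2 in the controls. Its log2 fold change of 2.73 ± 0.55 (SE) rests on this library, and with most probable places for the other 3 it was -0.43. The lowest and highest possible places were 1.95 and 195 in replicate 2, 8.11 and 811 in replicate 3, and 1.11 and 111 in replicate 4.

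The 2 remaining genes with the smallest p for a higher level were Slc2a6 and Gm19510. Slc2a6, a hexose transporter of activated macrophages, stood at 117, 93.1, 98.1 and 137 in the controls and at 336 and 345 in anti-CSF-1R replicates 2 and 4. Its left-out values were 18.8 or 188 in replicate 1 and 24.3 or 243 in replicate 3, and its log2 fold change was 1.62 ± 0.34 (SE). Gm19510, a long non-coding RNA on chromosome 15, stood at 20.7, 35.5, 24.1 and 21.3 in the controls and at 50.05, 64.5, 93.8 and 114 in the anti-CSF-1R libraries without overlap (log2 fold change 1.59, SE 0.35, adjusted p = 0.286 by limma).

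The same antibody was also given with cisplatin, and the combination against cisplatin asks the same question in 7 other libraries. There 0 of 9096 genes (0%) passed the threshold, with 660 at an unadjusted p under 0.05, and without replicate 2 of each group 0 of 8982 passed. The NF-kB list, with 26 of 34 members positive, had a median of 0.17 there. Rel differed by 0.19 ± 0.22 (SE), Nfkbia by 0.35 ± 0.34 (SE) and Tnfrsf9 by -0.74 ± 0.36 (SE). Zc3h12a differed by 0.18 ± 0.24 (SE) and Tnfaip3 by 0.034 ± 0.41 (SE). Differences were larger for Gm19510, at 1.33 ± 0.40 (SE), Tlr2, at 0.71 ± 0.24 (SE), and Bcl6, at 0.51 ± 0.23 (SE). Type I interferon-stimulated genes were positive in 63 of 63 cases (median 1.08), and the macrophage markers in 8 of 26 (median -0.32). C1qc and C1qb differed by -1.59 ± 0.44 (SE) and -1.02 ± 0.48 (SE), with 2 restored cisplatin values each. Fcrls had 1 restored cisplatin value, 51.3, against 1 in all 4 combination libraries, which leaves no spread in the cisplatin group.

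Whether the antibody effect differed with and without cisplatin was tested as an interaction, and 0 of 9085 genes (0%) passed, with 375 at an unadjusted p under 0.05. Tnfrsf9, with the smallest adjusted p of all genes in that test, had a difference of -2.60 ± 0.49 (SE) and an adjusted p of 0.377 by limma, and Rel one of -0.92 ± 0.31 (SE) with an adjusted p of 0.995. The lack of a call does not show that the effects were alike. The settings also differ in endpoint, since mice given cisplatin were killed at a set time after its second injection.

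**Figure D4:**
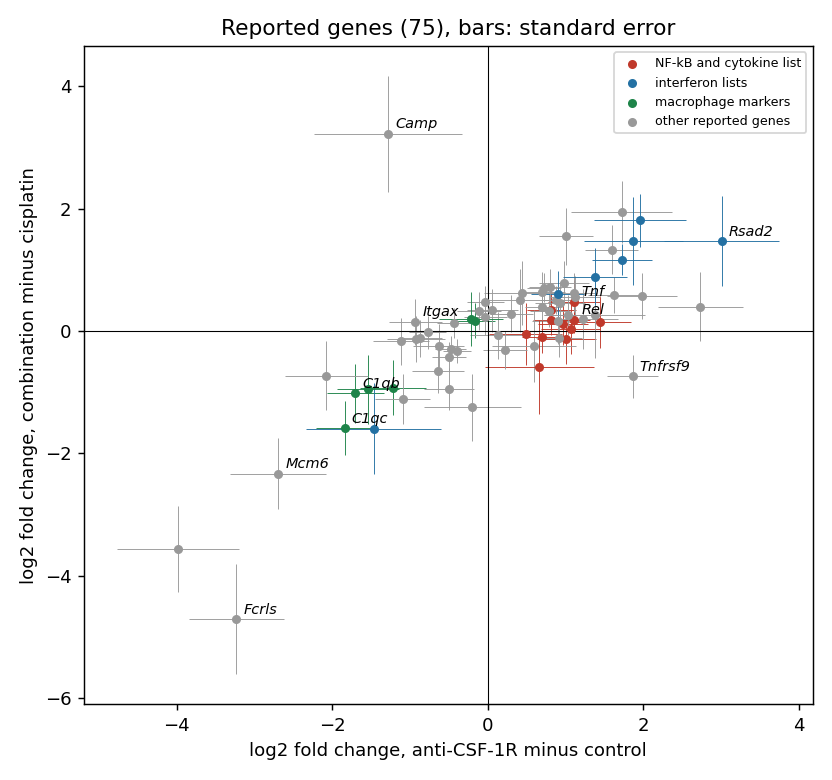
For 75 reported genes, the log2 fold change between anti-CSF-1R and control neutrophils is on the horizontal axis and that between combination and cisplatin neutrophils on the vertical axis, with standard errors as bars. The pairs share no library. C1qb, C1qc and Mcm6 are negative on both axes, and Rel lies at 1.11 on the horizontal and 0.19 on the vertical axis.

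In macrophages sorted from tumours under the same antibodies, 150 of 9059 genes (1.66%) passed the threshold with 2 libraries in the anti-CSF-1R group. The 31 members of the NF-kB list fitted there had a median log2 fold change of 1.016, against 0.691 for the list in neutrophils. Over all genes tested in macrophages the median was 0.028. The 16 neutrophil markers fitted in macrophages had a median of 0.91, and Csf3r differed there by 1.14 ± 0.42 (SE). The part of neutrophil RNA in the macrophage values was not tested. Mean values of Rel were 319 ± 138 (SD, n = 2) under the control antibody and 754 ± 289 (SD, n = 2) with anti-CSF-1R, a log2 fold change of 1.25 ± 0.46 (SE) that did not pass (adjusted p = 0.176 by limma). Nfkbia had a log2 fold change of 2.46 in macrophages, which rests on 1 restored anti-CSF-1R value. Cd274 averaged 211 ± 91.2 (SD, n = 3) in controls against 642 ± 35.4 (SD, n = 2), which gave a log2 fold change of 1.68 ± 0.36 (SE) and an adjusted p of 0.0447 by limma. Hspd1 averaged 409.7 ± 57.3 (SD, n = 4) in controls against 209 ± 30.9 (SD, n = 2), which gave -0.96 ± 0.20 (SE) and an adjusted p of 0.0304 by limma. Cd274 thus rose and Hspd1 fell in macrophages, while in neutrophils neither passed, and the difference between the cell types was not tested.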

How the data were processed

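RNA-seq libraries of FACS-sorted cells were made with Ovation RNA-seq V2 and Encore Rapid kits and sequenced on a HiSeq 1500, per the labels' protocols. The build mm10 and the tools TopHat2 2.0.11, CASAVA 1.8, DESeq2, R 3.3.1 and Partek 6.6, are known only from the submitters' processing notes, which give no order. The deposited signal values are gene read counts that the authors divided by a factor per library, as the whole-read steps in the values show; 90.6% of neutrophil values had their digits regrouped, so that 67.3% could be read at several places of the decimal point. Each place was restored with a negative binomial model with 1 level per gene and no groups, and 5.85% of values (probability under 0.95) were left out, with 0.127% of those kept expected wrong. This model was chosen on simulated data (9996 genes, 2 draws), where 6 of 126 calls were false (4.76%), against 39 of 235 (16.6%) with a model that uses the groups. The chosen model also found fewer changes there, 14.5% of 2-fold and 45.5% of 4-fold, against 25.5% and 72.5% with the groups. With the true places known, 22.5% and 65.5% were found, and 4 of 180 calls were false (2.22%).

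Genes at 10 or more in at least 2 neutrophil libraries were fitted with limma 3.58.1 in R 4.3.3 on log2(value + 1), over all 15 neutrophil libraries, with Benjamini-Hochberg adjustment over all genes tested and a threshold of 0.05. Groups came from titles, and replicate numbers, given in accession order, only name libraries. Positions are from GENCODE vM21 (GRCm38). The naming rule took the 4 members of each of 36 lists with the smallest p, 20 fixed genes, genes past the threshold and, with fewer than 5, the 5 with the smallest p in each direction. It named 152 genes, of which those the text turns on are among 76 reported, 11 of them outside the rule and chosen after their values were seen. Members and lists were chosen with earlier results of these data known.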

Additional observations from a re-analysis of the deposited data

Results flagged for a closer look

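In groups of 4 libraries, a value was singled out when its gap to the nearest other value took up more of the group's range, on the log2 scale, than Dixon's critical value for 4 samples. Of 181 groups of reported genes and lists, 12 were singled out (6.63%). Chance marks about 1 in 20 of independent groups without ties. Here some groups hold several values of 1 and some lists share genes, so that rate is only a rough guide. Among genes of activation, anti-CSF-1R replicate 3 was far above its group for Tnf, at 5986, and replicate 4 for Ifngr2, at 468. Anti-CSF-1R replicate 1 was far below its group for Tnfrsf1b, at 2772, and for Cd274, at 2921.

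Among macrophage genes, Fcrls stood at 9.77 in anti-CSF-1R replicate 2 and at 1 in the other 3, and C1qb at 102 in anti-CSF-1R replicate 3. Among genes of division and stress, Mcm6 stood at 20.7 and Hspd1 at 209 in control replicate 1, and Ube2c at 2.32 in anti-CSF-1R replicate 3. For Fcrls and Ube2c the other 3 values were all 1, so any higher value would have been singled out. Of the lists, given as mean log2 deviation, monocyte markers were lowest in anti-CSF-1R replicate 2, at -0.398, interferon-gamma-responsive genes highest in control replicate 4, at 1.14, and proliferation genes highest of the anti-CSF-1R libraries in replicate 1, at -0.198.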

How the results depend on the processing

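Of 1562 values of the 76 reported genes under 22 alternatives, 1535 kept their direction and side of the threshold, and 64 genes kept their direction throughout. The count of genes past the threshold was 0 except with array weights (2: Rel and Tnfrsf9), with places restored with the groups (5: Irgm2, Gm20139, Satb1 and Tnfrsf9 higher, Dedd2 lower) and when single libraries were left out (0 to 1: 9930111J21Rik2 without control replicate 4, Fcrls without anti-CSF-1R replicate 2, Pf4 without anti-CSF-1R replicate 4). For the combination against cisplatin it was 6 with places restored with the groups, and for the difference of effects 0 to 1 when leaving out libraries (1 without control replicate 4). A threshold of 0.1 added none.

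Directions turned with the most probable places for Cd22 (-0.43), Camp (0.061) and Nos2 (0.22), and with quantile normalisation for Il1b (-0.059), Csf2ra (-0.013), Csf2rb (-0.036), Cxcr2 (-0.20) and S100a9 (-0.011). Leaving out single libraries gave log2 fold changes of -0.0079 to 0.32 for Csf2ra, -0.17 to 0.12 for Csf3r, -0.11 to 0.31 for Cxcr2, -0.20 to 0.11 for Cxcr4, -2.96 to 0.39 for Camp, -0.79 to 0.35 for Arg1 and -0.28 to 0.061 for Tgfb1. It gave list medians of 0.16 to 0.82 for monocyte, -0.062 to 0.64 for dendritic cell and -1.11 to -0.30 for epithelial and tumour cell markers, -0.039 to 0.26 for adhesion, -1.05 to -0.77 for proliferation and -0.016 to 0.27 for lysosome genes. Quantile normalisation gave medians of -0.050 for adhesion, -0.28 for immediate early and heat shock, -0.43 for endoplasmic reticulum stress and -0.072 for lysosome genes, and the 9 proliferation genes restored throughout gave -0.21. The causes were not tested. Lists at most probable or fully restored values, and values of 1 taken as 0, were added after seeing the data.

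No paired analysis was possible because the labels number no replicates. The edgeR alternative was planned only if the deposited unit allowed it. The unit is normalised signal, so it was not run, and the restored reads were tested with limma-voom. Depth and left-out values limit genes under about 10, and with 4 libraries a group the test found 14.5% of simulated 2-fold changes.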
